A study of Mus musculus with 7 samples.

Results

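Rab GTPases are small proteins that switch between a GTP-bound and a GDP-bound state and mark the membranes of the cell, each on its own set of compartments. A Rab is loaded with GTP by an exchange factor and then recruits effectors, which tether, move or fuse vesicles. A GTPase-activating protein ends the cycle, and the prenyl tail that holds the Rab in the membrane is shielded by a GDP dissociation inhibitor when it is carried back through the cytosol. In neurons Rabs carry cargo through the Golgi apparatus, sort receptors in endosomes and prepare synaptic vesicles for release.

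The genes described here are those whose platform symbol begins with Rab and a digit, without effector names. Of 65 such symbols on the array, 7 were left out because letters for an activating or interacting protein follow the number, and Rab3il1 was left out because it encodes an exchange factor. This left 57 Rab GTPase genes with 87 probes, of 16593 genes and 25697 probes in all. The tested brains came from 3 male mice that the labels describe as homozygous for a ko allele of Duf1220, and the others from 4 male wild-type mice. All 7 mice were C57BL/6J and 21 weeks old, with 1 array each of total brain RNA. The labels do not describe how the allele was made, and they do not say that the mice were littermates. Duf1220 is the protein domain encoded in the mouse by Pde4dip, and its product, myomegalin, is a Golgi and centrosome protein that anchors a phosphodiesterase of the cAMP pathway. The Rabs were therefore divided by their textbook site of action into 16 Golgi, 20 endosomal and 7 synaptic or secretory genes, with 14 others.

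A probe was tested where its normalized intensity exceeded 16 on at least 3 arrays, and intensities under 16 were set to that floor, which is 4 on the log2 scale. By this rule 45 of the 57 genes were measured, through 63 probes, and each gene was read at its probe of highest mean signal. They were 13 Golgi, 16 endosomal, 5 synaptic and 11 other Rabs. The 12 genes with no tested probe were Rab2b, Rab19 and Rab30 of the Golgi class, Rab7b, Rab17, Rab20 and Rab25 of the endosomal class, Rab3c and Rab27b of the synaptic class, and Rab38, Rab40b and Rab44. Their readings do not show that the genes are silent in brain, since a weak probe gives the same result. Fewer cells of a type and less RNA per cell cannot be told apart in RNA of whole brain.

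Pde4dip itself was lower on every knockout array at its brightest probe, ILMN_3064283. This probe read 1233, 1442 and 1498 in knockout against 2228, 2502, 2198 and 2157 in wild type. The log2 difference was -0.71 (SE 0.15, limma adjusted p = 0.754, exact permutation p = 0.0286). The other Pde4dip probes, ILMN_2751354 and ILMN_1215884, overlapped between the groups. It was not examined here which of the 3 probes bind sequence that the allele removes. Wild-type arrays 2 and 3 stood apart from the rest, with mean correlations with the other arrays of 0.932 and 0.970 against 0.976 to 0.981 for the remaining 5. On wild-type array 2 the mean deviation of 6 hypothalamic marker genes was -1.21 on the log2 scale, against -0.29 to 0.45 on the other 6 arrays. The same array had the highest mean deviation of the 5 cortical markers (0.425) and of the 4 hippocampal markers (0.55). The 4 measured hippocampal markers were all lower in knockout, with mean deviations of -0.370 to -0.256 on the knockout arrays and -0.055 to 0.547 on the wild-type arrays. Of 6 choroid plexus markers 5 were lower in knockout, with mean deviations of -0.364 to -0.058 on the knockout arrays and 0.063 to 0.358 on the wild-type arrays. Of 10 neuronal markers, 8 were measured, and all 8 exceeded the floor on every array. The part of these marker and array differences in the Rab values was not tested, and values without wild-type arrays 2 and 3 are given below.

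Across the Rab genes no knockout difference passed an adjusted p of 0.05 with limma. The same held for all 12833 tested probes, of which 0% were called. The brightest Pde4dip probe was not called either (limma adjusted p = 0.754), so 0 calls do not show an absence of differences. At an unadjusted p under 0.05 there were 3 Rab genes of 45, Rab1b and Rab13 with lower and Rab37 with higher means in knockout, or 6.67% against 3.84% of all 9079 tested genes. Split by direction, 1 of 45 was higher and 2 were lower in knockout, against 2.21% and 1.63% of all tested genes. The knockout and wild-type arrays did not overlap for 5 of the 45 genes, or 11.1%, against 7.16% of all tested genes. They were Rab1b, Rab8a and Rab13, which were lower on every knockout array than on any wild-type array, and Rab37 and Rab9b, which were higher. Of all tested genes, 3.48% were higher and 3.68% lower in this way. Rab1b, Rab8a, Rab13 and Rab9b each had an adjusted p of 0.754. Rab37 passed the filter through its knockout arrays alone, with all 4 wild-type arrays at the floor, so its separation was fixed by the filter and is no result. In counts added after the data were seen, which leave out genes with a whole group at the floor, 2 of 44 Rab genes had an unadjusted p under 0.05, or 4.55% against 3.76% of all such genes. The groups then did not overlap for 4 of 44, or 9.09% against 7.07%. These shares lie near those of the whole array. The 45 differences ran from -0.63 to 0.45 on the log2 scale, with 21 higher and 24 lower in knockout and a median of -0.016. Of all tested genes 55.1% were higher and 44.9% lower, with a median of 0.033.

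**Figure D1:**
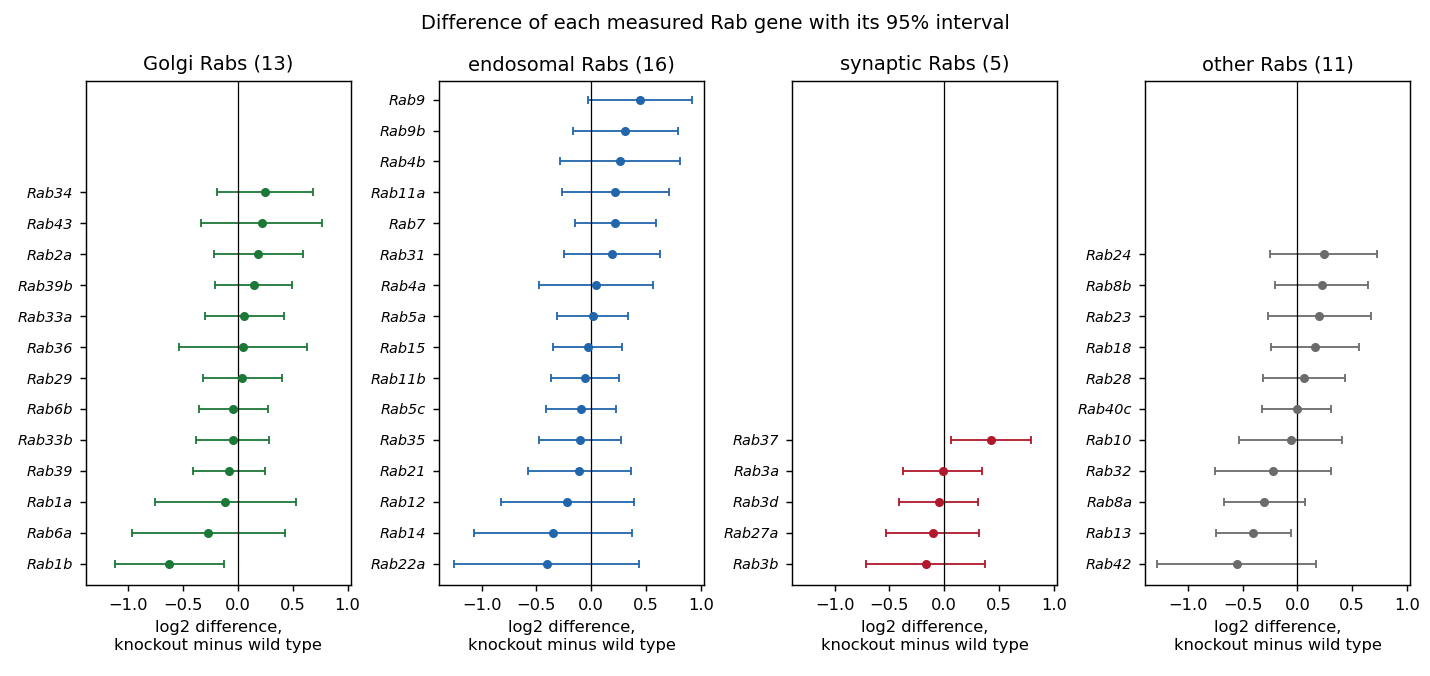
Log2 difference, knockout minus wild type, of each of the 45 measured Rab genes in 4 panels by class, with points for the limma estimate and bars for its 95% interval (3 knockout and 4 wild-type arrays). The intervals of Rab1b and Rab13 lie below 0, and that of Rab37 lies above it with all wild-type arrays at the floor, while those of the other 42 genes include 0.

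The stretches of 250 bases before the start site are shown for the members whose groups did not overlap, as far as the RefSeq promoter table of build GRCm38.p6 holds them. Capitals mark matches on either strand to TGACG, the core shared by many cAMP response elements (TGACGTCA), to CACGTG, an E-box, and to CCAAT. The Rab1b stretch lies at chr19:5106997-5107246 on the minus strand, that of Rab8a at chr8:72160950-72161199 on the plus strand, that of Rab13 at chr3:90213465-90213714 on the plus strand and that of Rab9b at chrX:136868557-136868806 on the minus strand. Rab13 has 2 start sites in the table, and the first is shown.
Rab1b: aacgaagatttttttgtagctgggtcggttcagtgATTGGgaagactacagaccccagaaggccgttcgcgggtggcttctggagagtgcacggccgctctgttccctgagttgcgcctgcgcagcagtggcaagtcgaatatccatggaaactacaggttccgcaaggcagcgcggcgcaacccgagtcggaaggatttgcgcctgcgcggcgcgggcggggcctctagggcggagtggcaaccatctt
Rab8a: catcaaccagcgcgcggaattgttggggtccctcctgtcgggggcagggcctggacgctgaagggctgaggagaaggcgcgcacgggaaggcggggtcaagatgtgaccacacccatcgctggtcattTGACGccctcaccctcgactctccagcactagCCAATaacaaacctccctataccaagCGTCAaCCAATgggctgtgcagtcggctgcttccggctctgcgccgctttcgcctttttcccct
Rab13: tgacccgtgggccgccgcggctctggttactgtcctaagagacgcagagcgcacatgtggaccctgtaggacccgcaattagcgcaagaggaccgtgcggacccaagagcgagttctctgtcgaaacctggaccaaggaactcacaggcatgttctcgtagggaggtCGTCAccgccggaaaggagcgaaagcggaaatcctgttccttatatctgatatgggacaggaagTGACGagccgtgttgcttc
Rab9b: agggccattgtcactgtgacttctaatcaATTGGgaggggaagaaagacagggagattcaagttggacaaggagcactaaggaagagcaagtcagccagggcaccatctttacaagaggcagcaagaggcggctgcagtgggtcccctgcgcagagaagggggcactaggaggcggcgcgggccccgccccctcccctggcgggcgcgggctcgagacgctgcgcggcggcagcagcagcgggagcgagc
Rab8a and Rab13 each hold 2 matches to TGACG, and none of the 4 holds TGACGTCA or CACGTG. Of the 45 measured genes, 40 had an entry, with 52 promoters in all. TGACG occurred in 20 of these promoters, or 38.5%, against 17.8% of all 32851 promoters of the same length, and CCAAT in 38.5% against 33.8%. CACGTG occurred in 7.69% against 6.02%, and TGACGTCA, which contains TGACG, in 1.92% against 1.55%. The Rab promoters were richer in G and C, with a median of 61.2% against 52.4%. The letters are a description of these windows only.

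Among the Golgi Rabs, Rab1b had the most negative difference, at the brighter of its probes only. Rab1b, which directs vesicles from the endoplasmic reticulum to the Golgi apparatus, read 254, 285 and 282 in knockout against 423, 609.5, 371 and 333 in wild type at probe ILMN_2693124. The knockout arrays lay close together and all below wild type, while wild-type array 2 was the highest. The log2 means were 8.10 ± 0.09 in knockout (SD, n = 3) and 8.72 ± 0.38 in wild type (SD, n = 4). On the log2 scale knockout minus wild type was -0.63, with an SE of 0.22 and a 95% interval of -1.12 to -0.13 (limma adjusted p = 0.754, exact permutation p = 0.0571). Without wild-type arrays 2 and 3 it was -0.46 (SE 0.14). Leaving arrays out cannot make separate groups overlap, so the separation of the remaining arrays adds nothing. The dimmer Rab1b probe ILMN_2887208 went the other way, with 54.1, 53.4 and 73.4 in knockout against 70.5, 18.5, 62.3 and 74.3 in wild type. Its difference was 0.26 (SE 0.46), the mean over both probes gave -0.18, and over the 7 arrays the Rab1b probes correlated at -0.70. On wild-type array 2 the first probe had its highest reading and the second its lowest.

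The remaining Golgi Rabs showed no separation of the groups. Rab1a, which shares the early secretory step with Rab1b, had 230, 202 and 146 in knockout against 173, 336, 162 and 189.5 in wild type, a log2 difference of -0.12 (SE 0.28). Rab2a, which acts between the Golgi apparatus and the endoplasmic reticulum, read 6355, 7171 and 6689 in knockout against 6455, 6828, 4557 and 6141 in wild type. Wild-type array 3 was well below the other 6, and the difference was 0.18 (SE 0.18), or 0.10 without wild-type arrays 2 and 3. Rab6b, the neuronal form of the Golgi Rab6, read 5559, 5746 and 6257 in knockout against 6595, 5864, 5782 and 5961 in wild type. This was the narrowest spread in the class (0.25 on the log2 scale from the lowest to the highest array), and its difference was -0.05 (SE 0.14, 95% interval -0.36 to 0.27).

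Rab34, a Golgi and ciliary Rab, had higher means in knockout at all 3 of its probes. At ILMN_3029294 it read 336, 315 and 281 in knockout against 271, 194, 289 and 306.5 in wild type. The groups overlapped through knockout array 3 and wild-type arrays 3 and 4, and the difference was 0.25 (SE 0.19). It was 0.10 without wild-type array 2, the lowest, and 0.11 without wild-type arrays 2 and 3. The other probes gave 0.38 (SE 0.21) and 0.25 (SE 0.24). Rab6a had differences of -0.27, -0.11 and 0.05 at its 3 probes. The remaining members were Rab29, Rab33a, Rab33b, Rab36, Rab39, Rab39b and Rab43, among them Rab39b, whose human gene is mutated in an X-linked intellectual disability. Their differences lay between -0.08 for Rab39 and 0.21 for Rab43. Of the 13 measured Golgi Rabs, 7 were higher and 6 lower in knockout, with a median difference of 0.039. Without wild-type arrays 2 and 3 the split was 5 higher and 8 lower, and the median was -0.039.

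**Figure D2:**
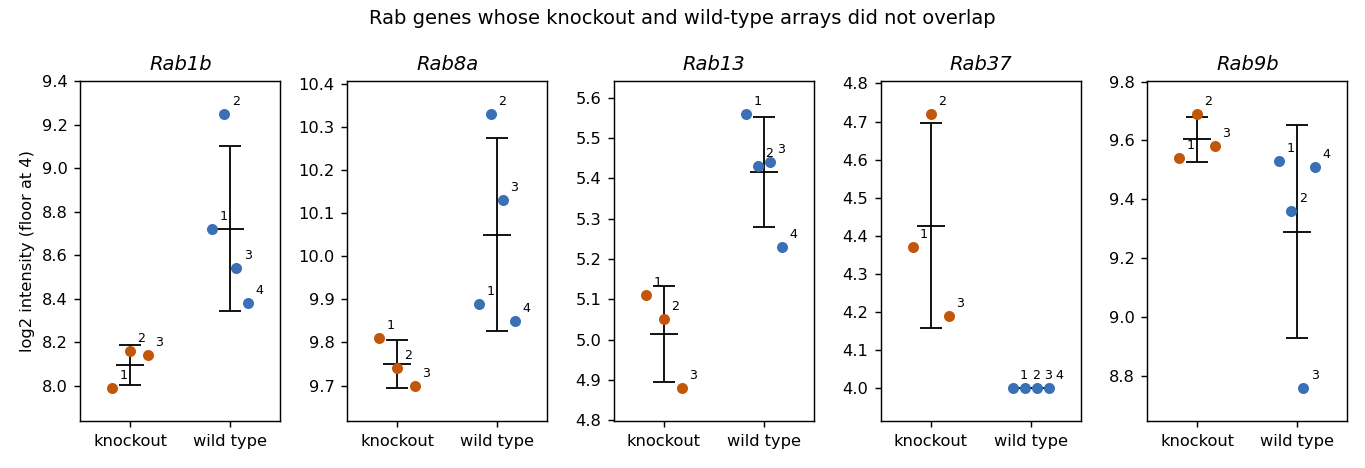
Log2 intensity of Rab1b, Rab8a, Rab13, Rab37 and Rab9b on each array, with knockout on the left and wild type on the right of each panel. Points are arrays marked by replicate number, and bars are the mean ± SD (n = 3 and n = 4). The 4 wild-type arrays of Rab37 lie at the floor of 4, and Rab9b separates by the small gap between knockout array 1 (9.54) and wild-type array 1 (9.53).

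Among the endosomal Rabs, the highest differences were those of Rab9 and Rab9b, which act on late endosomes. Rab9, which returns receptors from late endosomes to the Golgi apparatus, read 61.4, 91.2 and 90.0 in knockout against 64.5, 56.0, 46.7 and 69.1 in wild type at ILMN_2783918. Knockout arrays 2 and 3 lay above all others, and knockout array 1 lay within the wild-type range. This gave 0.45 on the log2 scale, with an SE of 0.21 and a 95% interval of -0.03 to 0.92 (exact permutation p = 0.143), and 0.25 without wild-type arrays 2 and 3. The other Rab9 probe, ILMN_1258125, gave -0.17 (SE 0.21). Rab9b, the close relative of Rab9, read 743, 823 and 763 in knockout against 741, 658, 434 and 729.5 in wild type. The groups did not overlap, but 3 of the wild-type values were near the knockout values and wild-type array 3 was far below. The difference was 0.31 (SE 0.21, exact permutation p = 0.143), and it was 0.08 without wild-type arrays 2 and 3.

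Rab7, which controls the transport of late endosomes to lysosomes, differed between its own probes. The probe of highest signal, ILMN_1248907, read 2757, 2525 and 2123 in knockout against 2114, 1806, 2196 and 2355 in wild type, a difference of 0.22 (SE 0.16), or 0.14 without wild-type arrays 2 and 3. The dim probe ILMN_1254837 read 49.5, 36.2 and 33.3 in knockout against 43.4, 93.9, 55.5 and 40.4 in wild type, a difference of -0.49 (SE 0.30). The other dim probe, ILMN_2618549, gave -0.39 (SE 0.31). On both dim probes wild-type array 2 was far above the rest, and on the bright probe it was the lowest. The dim probes correlated at 0.96 with each other over the 7 arrays, and the lowest correlation among the 3 probes was -0.62.

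Several Rabs of early and recycling endosomes varied little between arrays. Rab11b, a recycling endosome Rab that is prominent in brain, read 7765, 8217 and 8856 in knockout against 8880, 9021, 8296 and 8196 in wild type, a difference of -0.06 (SE 0.14, 95% interval -0.37 to 0.25). Rab15, which also acts on recycling endosomes, read 3934, 4494 and 4539 in knockout against 4450, 4381, 4180 and 4642 in wild type, a difference of -0.03 (SE 0.14). Rab5a and Rab5c, which direct fusion of early endosomes, differed by 0.02 (SE 0.14) and -0.09 (SE 0.14). In each of these 4 genes the groups overlapped at the brightest probe, and its highest and lowest arrays lay at most 0.30 apart on the log2 scale. The other tested Rab5a probe, ILMN_2786763, ran from 7.85 to 8.4 over the arrays. Its difference was 0.21 (SE 0.18), with overlapping groups, and it correlated with the first at 0.06.

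Rab14 and Rab22a, which act between the trans-Golgi network and early endosomes, had negative differences that turned positive without wild-type arrays 2 and 3. Rab14 read 1509, 1523 and 2418 in knockout against 2033, 3529, 2536 and 1429 in wild type. Rab22a read 99.4, 81.8 and 147 in knockout against 124, 224, 181 and 76.9 in wild type, and its other tested probe followed it with a correlation of 0.95. In each gene the highest readings were those of wild-type arrays 2 and 3 and the lowest that of wild-type array 4. The differences were -0.35 (SE 0.32) and -0.40 (SE 0.37), and without those arrays they were 0.06 for Rab14 and 0.12 for Rab22a. Rab4a, Rab4b, Rab11a, Rab12, Rab21, Rab31 and Rab35 differed by -0.22 for Rab12 up to 0.26 for Rab4b. Of the 16 measured endosomal Rabs, 8 were higher and 8 lower in knockout, with a median of -0.008, and 9 and 7 without wild-type arrays 2 and 3, with a median of 0.046.

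The synaptic and secretory Rabs differed little where they were read above the floor. Rab3a, the main Rab of synaptic vesicles and a regulator of their release, read 4938, 3986 and 4356 in knockout against 4873, 3805, 4491 and 4749 in wild type. The groups covered the same range, and the difference was -0.02 (SE 0.16, 95% interval -0.38 to 0.34). Rab3b read 166, 171 and 209.8 in knockout against 202, 296, 193 and 149 in wild type, a difference of -0.17 (SE 0.24), with wild-type array 2 the highest, and 0.06 without wild-type arrays 2 and 3. Rab3d read 197, 204 and 241 in knockout against 237, 188, 230.1 and 233 in wild type, a difference of -0.05 (SE 0.16). Rab27a, which docks secretory vesicles, read 199, 182 and 204 in knockout against 186, 279.7, 203 and 181 in wild type, a difference of -0.10 (SE 0.19).

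Rab37, known from the secretory granules of mouse mast cells, read 20.7, 26.3 and 18.2 in knockout against 9.3, -0.3, 15.7 and 15.0 in wild type. All 3 knockout arrays exceeded the floor of 16 and all 4 wild-type arrays were set to it. The ratio of 1.34-fold on the floored scale therefore depends on the floor. The unadjusted p and the interval of Rab37 carry no weight, since the gene entered the fit only through the group where it was high. All 7 readings were dim, and the difference between knockout array 3 and wild-type array 3 was small, at 18.2 and 15.7. The log2 difference was 0.43 with the floor at 16 and 0.90 with the floor at 8. At a floor of 32 the gene was no longer measured. Of 4 measured markers of blood cells, S100a9 and S100a8, which are abundant in neutrophils, were higher on every knockout array than on any wild-type array, by 1.29 (SE 0.25) and 0.88 (SE 0.30) on the log2 scale. The red cell genes Alas2 and Hba-a1 differed by -1.07 (SE 0.50) and -0.58 (SE 0.32). Over the 4 markers the mean deviation was -0.279 to 0.305 on the knockout arrays and -0.372 to 0.480 on the wild-type arrays, and the part of blood cells in the Rab37 readings was not tested. Of the 5 measured synaptic Rabs, Rab37 alone had a higher mean in knockout, and the median difference was -0.052. Without wild-type arrays 2 and 3 there were 3 higher and 2 lower, and the median was 0.062.

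Among the other Rabs, Rab13 and Rab8a, which serve polarised delivery to the cell surface, were lower on every knockout array. Rab13, known from tight junctions of epithelial and endothelial cells, read 34.5, 33.1 and 29.5 in knockout against 47.1, 43.1, 43.4 and 37.6 in wild type at ILMN_2647793. The log2 difference was -0.40 with an SE of 0.15 and a 95% interval of -0.74 to -0.06 (limma adjusted p = 0.754, exact permutation p = 0.0571). The second Rab13 probe, ILMN_2647792, read 25.3, 18.5 and 22.9 in knockout against 29.1, 22.7, 41.1 and 25.8 in wild type, a difference of -0.39 (SE 0.23), and its groups overlapped through knockout array 1 and wild-type array 2. Without wild-type arrays 2 and 3 the first difference was -0.38 (SE 0.14). Rab13 lies on chromosome 3, as Pde4dip does, with 191 protein-coding genes between them in the RefSeq annotation. The other measured Rab of that chromosome, Rab33b, lies 456 such genes from Pde4dip and differed by -0.05 (SE 0.14), with overlapping groups. Of 6 measured endothelial markers, all above the floor on every array, 6 had higher means in knockout, and their mean deviation was 0.058 to 0.087 on the knockout arrays and -0.111 to -0.002 on the wild-type arrays. The part of endothelial RNA in the Rab13 readings was not tested.

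Rab8a, which carries vesicles from the trans-Golgi network to the plasma membrane and into cilia, read 898, 854 and 832 in knockout against 950.5, 1285, 1118 and 926 in wild type at ILMN_2928050. Knockout minus wild type was -0.30, with an SE of 0.16 and a 95% interval of -0.67 to 0.07 (exact permutation p = 0.0857). It was -0.12 without wild-type arrays 2 and 3, which held the highest readings. The dimmer probe ILMN_2928051 read 159, 126 and 128 in knockout against 157, 85.9, 168 and 137 in wild type, a difference of 0.04 (SE 0.25). Rab8b, its closest relative, read 1133, 1188 and 1253 in knockout against 1265, 892, 832 and 1159 in wild type, a difference of 0.22 (SE 0.19), or -0.02 without wild-type arrays 2 and 3. Rab8b was lowest on wild-type arrays 2 and 3, where Rab8a was highest. The log2 ratio of Rab8a to Rab8b was -0.34, -0.48 and -0.59 in knockout against -0.41, 0.53, 0.43 and -0.32 in wild type.

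Rab42 had the largest negative difference outside the Golgi class, and the widest spread over the arrays within its own class. It read 22.7, 26.5 and 32 in knockout against 44.4, 43.5, 57.2 and 21.5 in wild type, so that wild-type array 4 lay below all knockout arrays. The difference was -0.55 (SE 0.32), and -0.31 (SE 0.37) at its other probe. Leaving out wild-type array 4 gave -0.84 and leaving out wild-type array 3 gave -0.37, while the omission of both wild-type arrays 2 and 3 gave -0.21. Rab28, a Rab of photoreceptor cilia, read 3120, 3406 and 3009 in knockout against 2863, 3560, 2572 and 3267 in wild type, a difference of 0.06 (SE 0.16). Rab40c, which joins a ubiquitin ligase, read 1421, 1228 and 1335 in knockout against 1293, 1329.8, 1257 and 1434 in wild type, with means of 10.37 in each group.

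Rab24, which takes part in autophagy, had probes of opposite sign. Its probes ILMN_2946440 and ILMN_2624647 gave 0.24 (SE 0.21, or 0.07 without wild-type arrays 2 and 3) and 0.30 (SE 0.22), and ILMN_2747912 gave -0.30 (SE 0.17). The groups overlapped at this probe only through knockout array 1, at 433.5 in knockout against 424 on wild-type array 2. Rab10, Rab18, Rab23 and Rab32 differed by -0.22 for Rab32 up to 0.20 for Rab23. Of the 11 measured members of this class, 5 were higher and 6 lower in knockout, with a median of -0.001.

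**Figure D3:**
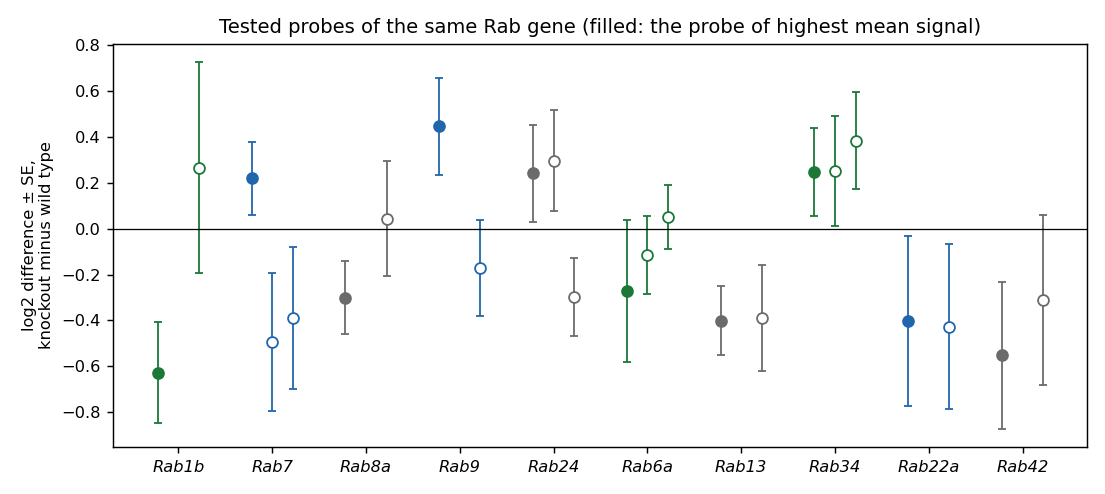
Log2 difference ± SE, knockout minus wild type, for every tested probe of 10 Rab genes with several tested probes. Filled points are the probe of highest mean signal and open points the others. Rab13, Rab34, Rab22a and Rab42 have probes of 1 sign, while those of Rab1b, Rab7, Rab8a, Rab9, Rab24 and Rab6a lie on either side of 0. Not drawn are Rab5a, Rab8b and Rab28, with probes of 1 sign, and Rab10, with probes of opposite sign.

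Probes of the same Rab gene did not always agree. Of 14 genes with 2 or more tested probes, 7 had differences of opposite sign. These include 2 of the 5 genes whose groups did not overlap, Rab1b and Rab8a, and also Rab10 with only -0.06 and 0.02. The share over all genes with several tested probes was not computed, so the count is not shown to be particular to Rabs. The files do not pair the probes with their sequences, so the transcripts they bind were not compared. The gap between probes was 0.89 for Rab1b, 0.71 for Rab7 and 0.62 for Rab9. It was 0.01 for Rab13 and 0.02 for Rab22a.

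The classes set side by side gave no separation of the groups. The mean deviation of the 13 Golgi Rabs was -0.014, 0.023 and -0.045 on the knockout arrays against 0.056, 0.027, -0.072 and 0.025 on the wild-type arrays. That of the 16 endosomal Rabs was -0.042, -0.039 and 0.119 in knockout against 0.039, 0.066, -0.046 and -0.097 in wild type. The 5 synaptic Rabs gave -0.011, -0.010 and 0.050 in knockout against 0.001, 0.092, -0.018 and -0.105 in wild type. In each class the highest and the lowest wild-type array enclosed the knockout arrays, except knockout array 3 in the endosomal class. The median size of a difference, regardless of sign, was 0.118 in the Golgi class, 0.203 in the endosomal, 0.102 in the synaptic and 0.220 in the other class, beside 0.184 for all tested genes. A size of 0.3 or more was reached by 1 of 13 Golgi, 4 of 16 endosomal, 1 of 5 synaptic and 3 of 11 other Rabs. Over the family this was 9 of 45, or 20%, against 28.0% of all tested genes.

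**Figure D4:**
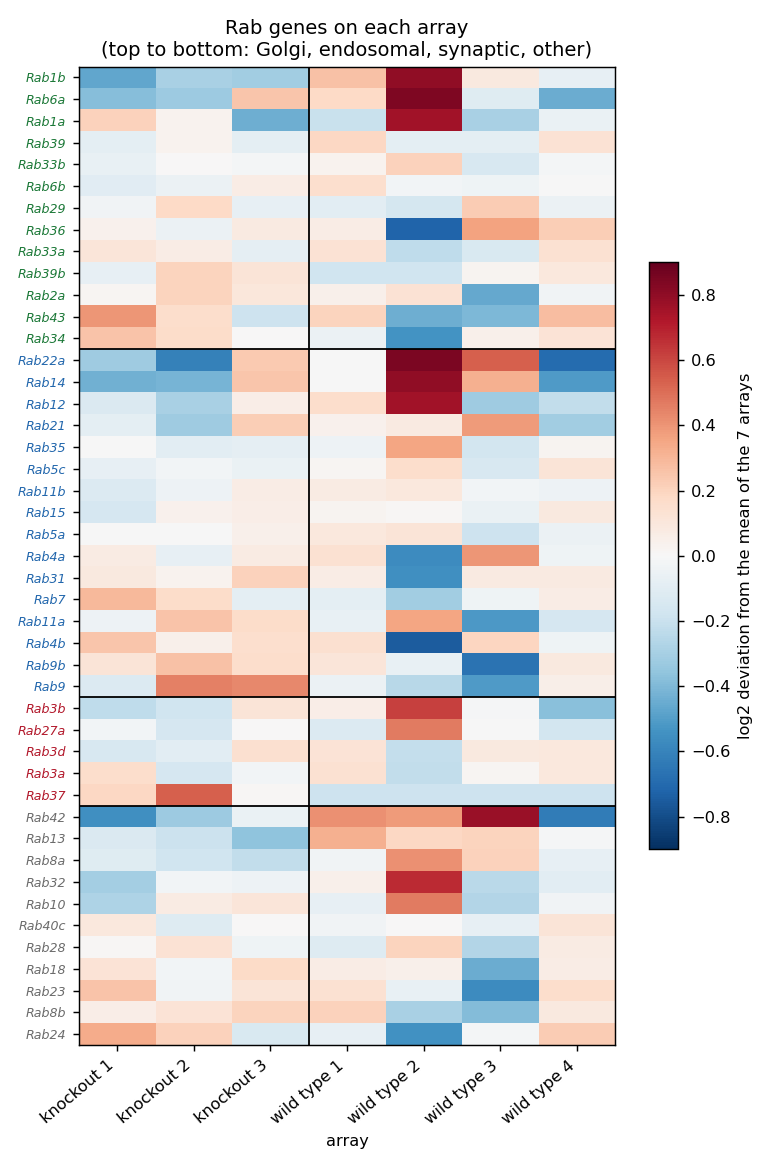
Deviation of each measured Rab gene (rows, by class) from its mean over the 7 arrays (columns, knockout left of wild type), in log2 units. The strongest colours stand in the columns of wild-type arrays 2 and 3, and Rab22a, Rab14, Rab6a, Rab1b and Rab36 show them on wild-type array 2.

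The Rabs varied most with wild-type array 2, on which 18 of the 45 genes had their highest and 12 their lowest reading. Together these were 66.7% of the family, against 67.2% of all tested genes. Wild-type array 3 held the extreme reading of 40% of the Rabs, against 40.4% of all genes, and the other 5 arrays of 13.3% to 31.1%. Rab deviations had a median size of 0.290 on the second wild-type array, 0.191 on the third and 0.091 to 0.151 on the remaining 5. Over all tested genes the median sizes were larger on the former arrays, at 0.385 and 0.232, and 0.103 to 0.149 on the remaining 5. The genes highest on wild-type array 2 included Rab22a, Rab6a, Rab1b, Rab14, Rab1a and Rab12, at 0.76 to 0.85 above their means. Rab4b and Rab36 were lowest there, at -0.75 and -0.72.

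Leaving out wild-type arrays 2 and 3, which leaves 3 knockout and 2 wild-type arrays, turned the sign of 14 of the 45 differences. Of the 9 genes with differences of 0.3 or more, Rab1b then had -0.46 and Rab13 -0.38, and 6 were below that size. Rab37 kept 0.43, as it must with every wild-type array at the floor. The remaining groups did not overlap for 9 of 45 Rabs, or 20%, against 16.9% of all tested genes. Rab37, Rab1b, Rab8a, Rab13 and Rab9b are among the 9. They had to be, since leaving arrays out cannot make separate groups overlap. An unadjusted p under 0.05 was reached by 3 of 45 Rab genes, Rab37 among them, against 3.50% of all tested genes, and every Rab had a limma adjusted p of 1.0.

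**Figure D5:**
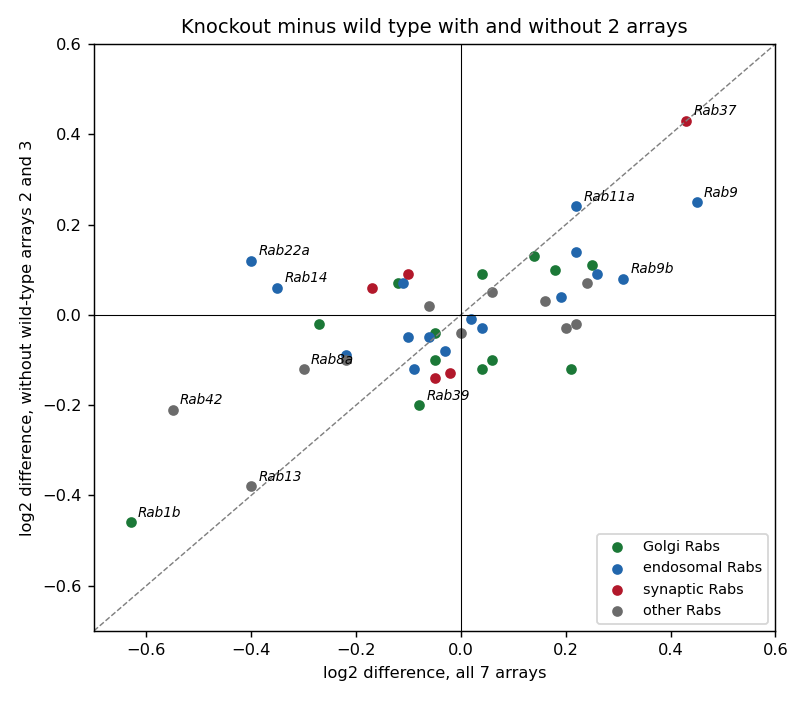
Log2 difference, knockout minus wild type, of the 45 measured Rab genes with all 7 arrays (horizontal axis) and without wild-type arrays 2 and 3 (vertical axis), coloured by class; the dashed line marks equal values. Rab1b and Rab13 stay on the left at -0.46 and -0.38, and Rab37 lies on the line because its wild-type arrays are all at the floor, while Rab22a and Rab14 move from the left to just above 0.

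Close relatives within the family were also set against each other on each array, in 10 pairs chosen after their values had been seen, so the ratios are a description with no test. The log2 ratio of Rab4a to Rab4b, which both recycle receptors quickly to the cell surface, was 1.83, 1.89 and 1.93 in knockout against 2.00, 2.19, 2.22 and 2.01 in wild type. The mean ratio differed by -0.22 on the log2 scale, and the readings of each gene overlapped between the groups. Among the 10 pairs only this ratio did not overlap between the groups. For Rab1a over Rab1b the ratio was -0.15, -0.50 and -0.95 in knockout against -1.29, -0.86, -1.20 and -0.81 in wild type, and it overlapped through knockout array 3. The ratio of Rab3a to Rab3d differed by 0.04 and that of Rab33a to Rab33b by 0.11.

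The genes that load, switch off and use the Rabs had no member past the threshold in either direction. Of 5 measured chaperone and prenylation genes, 3 were higher and 2 lower in knockout, with a median of 0.091. Rabggtb, a subunit of the enzyme that attaches the prenyl tail, differed by 0.20 (SE 0.17), and Gdi2, a GDP dissociation inhibitor, by -0.33 (SE 0.41). These differences were 0.07 and 0.17 without wild-type arrays 2 and 3. Of 25 measured exchange factors, 13 were higher and 12 lower, with a median of 0.052. They ran from Dennd5b at -1.0 (SE 0.46) to Dennd6b at 0.68 (SE 0.37), and without wild-type arrays 2 and 3 these were -0.24 and 0.35. Madd, the exchange factor for the Rab3 proteins, differed by -0.63 (SE 0.41) and by -0.07 without those arrays.

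Of 21 measured genes listed as Rab GTPase-activating proteins, 16 were higher and 5 lower in knockout, with a median of 0.095. Whether each listed protein acts on a Rab was not examined. The share higher was 76.2%, against 55.1% of all tested genes, whose median was 0.033. The mean deviation of the 21 genes was 0.062, 0.086 and 0.048 in knockout against -0.011, -0.129, -0.081 and 0.024 in wild type, so that the groups did not overlap. No single member of the list separated the groups. The endothelial, choroid plexus and hippocampal marker lists separated them as well. Tbc1d24, whose human gene is mutated in epilepsy, differed by 0.44 (SE 0.18) and Tbc1d10c by 0.54 (SE 0.23). Of those with lower means, Tbc1d1 differed by -0.32 (SE 0.21) and Tbc1d7 by -0.21 (SE 0.16), and the whole list ran from -0.76 to 0.68. Tbc1d24 lay near the floor, at 4.73, 5.0 and 4.61 on the log2 scale in knockout against 4.18, 4.63, 4.41 and 4.15 in wild type. Without wild-type arrays 2 and 3, 12 of the 21 were higher, and the median was 0.007. Of 28 measured Rab effectors, 18 were higher and 10 lower, with a median of 0.047, and 12 and 16 without those arrays. Fyco1, which links Rab7 to kinesin, was higher on every knockout array, at log2 levels of 7.5, 7.67 and 7.73 in knockout against 7.47, 7.01, 6.83 and 7.48 in wild type. Its difference was 0.44 (SE 0.20), and 0.16 without those arrays. Plekhm1, an effector of Rab7 in lysosome fusion, differed by -0.29 (SE 0.27) and Rab11fip5, which binds Rab11, by -0.20 (SE 0.19). Omission of wild-type arrays 2 and 3 gave 0.02 for Plekhm1 and -0.1 for Rab11fip5.

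Golga2, which encodes the Golgi matrix protein GM130 and binds Rab1 in its active form, was lower on every knockout array, as Rab1b was at its brighter but not at its dimmer probe. Its log2 level was 8.73, 8.60 and 8.54 in knockout against 9.10, 9.64, 9.09 and 8.96 in wild type, and wild-type array 2 was again the highest. The difference was -0.57 (SE 0.19, limma adjusted p = 0.754, exact permutation p = 0.0286), and -0.40 without wild-type arrays 2 and 3. Golga1, a golgin of the trans-Golgi network, was higher on every knockout array, with a difference of 0.42 (SE 0.20), and 0.15 without those arrays. Golga7 differed by -0.43 (SE 0.28) and Gcc2, another golgin of the trans-Golgi network, by 0.57 (SE 0.36). Without wild-type arrays 2 and 3, Golga7 had -0.12 and Gcc2 -0.05. Of 11 measured Golgi matrix genes and golgins, 8 were higher and 3 lower in knockout, with a median of 0.102, and 6 and 5 without those arrays, with a median of 0.006. With all arrays the share higher was 72.7%, against 55.1% of all tested genes.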

How the data were processed

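Total brain RNA of 7 mice was labelled with biotin and read on Illumina bead arrays, per the labels' protocols. The values used are the deposited normalized intensities on a linear scale, made with GenomeStudio 2011.1 per the submitters' processing notes. The values include negative intensities, and the array medians run from 14.56 to 14.62, so background had been subtracted and arrays scaled to each other, by a method not given in the sources used here. A deposited table of bead signals was left aside: no label matches its 7 signal columns by name.

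Intensities were floored at 16, log2 values taken, and the 12833 probes above 16 on at least 3 arrays compared by lmFit and eBayes of limma 3.58.1 under R 4.3.3 with genotype as the only term, with Benjamini-Hochberg adjustment over all of them. Differences are knockout minus wild type in mean log2 intensity, and the floor understates them for dim probes. For single genes an exact permutation test (two-sided, 35 splits of the arrays) was added, whose smallest possible p is 0.0286. For gene lists, each measured gene was centred on its own mean of 7 arrays, and the centred values were averaged per array as the mean deviation. The fit was also run on simulated arrays with known changes and independent noise for each probe. They lacked the shared deviations of whole arrays seen here, so that run does not cover their effect.

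The labels give 1 mouse per array, and no pair of arrays shared more than 0.00389% of its values exactly. Platform annotation named 1 gene for 23978 probes and none for 1719. Symbols are those of that annotation, chromosomes and promoters were taken from RefSeq by symbol, and figures from matplotlib 3.10.9. The small number of arrays limits precision, and the median standard error of a difference was 0.21.

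The members, lists and tests were chosen with earlier results of these data known. Values on every array were given for members whose groups did not overlap, for the 3 with the smallest unadjusted p and the 2 with the highest signal in each class, and for genes whose probes had opposite signs with a size of 0.3 or more. Other members were named freely, and each list of related genes by up to 2 genes per direction. Alternatives were floors of 8 and 32, looser and stricter filters, quantile and median scaling, a robust intensity trend, array weights, omission of arrays, a block for the replicate number and the mean over a gene's probes.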

Additional observations from a re-analysis of the deposited data

Results flagged for a closer look

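The 4 wild-type arrays were examined for 1 far from the others in 49 sets of values, namely the measured Rab genes other than Rab37, the mean deviations of the 4 classes and the brightest Pde4dip probe. In 3 of them 1 array stood out. The rule flags about 1 in 20 independent sets by chance, but these sets share arrays and genes. The number that chance would give is therefore not known. Rab3d had a log2 intensity of 7.55 on wild-type array 2, where the remaining 3 lay at 7.85 to 7.89. Rab31, an endosomal Rab of the Rab5 subfamily, had 10.06 on wild-type array 2, against 10.68 to 10.69. Rab18, a Rab of lipid droplets and the endoplasmic reticulum, had 8.53 on wild-type array 3, against 9.02 to 9.04. The arrays are the same that stood apart over all genes.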

How the results depend on the processing

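No Rab probe passed the threshold under any alternative run, and of 805 values of single genes under 18 alternatives 749 kept their direction and 56 did not. The direction held throughout for 20 of 45 genes. The array weights were 6.71 for wild-type array 1 against 0.104, 0.335 and 0.855 for wild-type arrays 2, 3 and 4. For the knockout arrays they were 1.56, 2.53 and 1.26, so the weighted wild-type mean rests mostly on 1 mouse. With these weights, 28 of all probes passed with limma (11 higher and 17 lower in knockout), and the lowest Rab adjusted p was 0.0618. Of all probes, 2649 then had an unadjusted p under 0.05, against 539 without weights. Under these weights the median was -0.049 for Golgi and -0.14 for synaptic Rabs, and the differences that turned were Rab1a 0.15, Rab4a -0.11, Rab5a -0.06, Rab8b -0.05, Rab10 0.05, Rab23 -0.02, Rab27a 0.04, Rab33a -0.07, Rab36 -0.08, Rab40c 0.00, Rab43 -0.03. Without wild-type arrays 2 and 3 the Golgi median was -0.039 and the synaptic 0.062, and those that turned were Rab1a 0.07, Rab3b 0.06, Rab4a -0.03, Rab5a -0.01, Rab8b -0.02, Rab10 0.02, Rab14 0.06, Rab21 0.07, Rab22a 0.12, Rab23 -0.03, Rab27a 0.09, Rab33a -0.10, Rab36 -0.12, Rab43 -0.12. Others turned with a floor of 8 (Rab39 0.03), with the mean over probes (Rab7 -0.22) and with median scaling or quantile normalization (Rab40c 0.00 each). With the replicate number as a block 0 probes passed, as without it, and 1535 had an unadjusted p under 0.05. Rab3a was then 0.01 and Rab40c 0.04. Number 4 exists only in wild type, so the block takes up wild-type array 4. Each difference with the block is therefore that without wild-type array 4, and the 805 values hold it under both settings. Same-numbered arrays deviated together with correlations of only 0.08, -0.132 and -0.037 over 12833 probes, so the numbers were not taken to pair the mice.

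Leaving out 1 array at a time gave 0 calls and 163 (without knockout array 2) to 1633 (without wild-type array 4) probes at an unadjusted p under 0.05. The medians were -0.035 to 0.069 for Golgi, -0.135 to 0.012 for synaptic and -0.027 to 0.092 for other Rabs. The single genes that turned had ranges of Rab10 -0.15 to 0.09, Rab12 -0.36 to 0.01, Rab15 -0.07 to 0.03, Rab1a -0.26 to 0.12, Rab21 -0.25 to 0.02, Rab27a -0.17 to 0.04, Rab28 -0.02 to 0.14, Rab29 -0.04 to 0.12, Rab33a -0.01 to 0.11, Rab33b -0.10 to 0.01, Rab35 -0.17 to 0.00, Rab36 -0.19 to 0.17, Rab3a -0.10 to 0.06, Rab3b -0.32 to 0.01, Rab3d -0.14 to 0.01, Rab40c -0.05 to 0.05, Rab4a -0.14 to 0.18, Rab5a -0.04 to 0.06. Rab42 had a larger negative difference than Rab1b with array weights (-0.65 against -0.58) and without wild-type array 4 (-0.84 against -0.74). The replicate block gave the latter values again, by its construction. The causes were not tested. Precision is limited by 7 arrays, and readings near the floor, such as Rab37 and Rab39, carry the least information.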
